A study of Mus musculus with 11 samples.

Results

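The UCH family of deubiquitinases was followed in single 8-cell mouse embryos, control and mutant for *Prdm10*. The family was taken as the 4 mouse genes *Uchl1*, *Uchl3*, *Uchl5* and *Bap1*, found by symbol among the 54146 genes of the deposited tables, and all 4 were present. They were chosen with the difference between mutant and control embryos in view, so their genotype differences are given as a description, without a test. Embryos were collected at embryonic day 2.5 from naturally mated *Prdm10* heterozygotes on a C57BL/6 background, and each library was made from 1 whole embryo with a Smart-seq2 protocol, which copies polyadenylated RNA without marking its strand. The 5 mutant embryos carried a deletion of an exon of *Prdm10* on both alleles, and the 6 controls were wild-type or heterozygous, which the labels do not separate. Genotype was assigned by amplifying that exon from each embryo's own cDNA. Batch 1 had 16 cycles of PCR pre-amplification and held 3 controls and 2 mutants. Batch 2 had 13 cycles and held 3 controls and 3 mutants. A library is a whole embryo, so fewer cells with a transcript and less of it per cell cannot be told apart.

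Deubiquitinases cut ubiquitin off other proteins, to which this small protein is attached to mark them for degradation or to change their activity. The UCH (ubiquitin C-terminal hydrolase) enzymes are cysteine proteases with a narrow active site, and the small members are best known for trimming short C-terminal extensions from ubiquitin. UCHL3 also acts on NEDD8, a ubiquitin-like protein that is attached to cullins. UCHL1 is very abundant in neurons and in germ cells, including oocytes. UCHL5 (also called UCH37) works in larger machines, being recruited to the proteasome by ADRM1 and to the INO80 chromatin remodelling complex by NFRKB. BAP1 is a nuclear enzyme that pairs with an ASXL protein to remove ubiquitin from histone H2A. PRDM10, whose gene carries the deletion, is a DNA-binding transcription factor with zinc fingers.

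The transcription start regions of *Uchl3* and *Uchl1* are printed because these were the members that were lower in mutants. Each window runs from 250 bases before to 50 bases after the RefSeq start (GRCm38.p6). The study mapped PRDM10 binding sites in mouse embryonic stem cells, found a motif enriched in them and tested it in reporter assays. It also tested binding of PRDM10 on a pair of designed probes. The element TGGTNNNNNCC, where N is any base, was read from those probes and not from that motif. It stands once in the wild-type probe and is broken in the mutated one. The mutated probe also differs within the bases written as N, so the pair does not show that those bases are free. Both strands of each window were searched for the element. Capitals mark the fixed letters of a match, which on the opposite strand read GGNNNNNACCA.
Wild-type probe: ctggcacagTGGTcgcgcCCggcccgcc
Mutated probe: ctggcacagcaaccgcatttggcccgcc
Uchl3, chr14:101653717-101654016, plus strand: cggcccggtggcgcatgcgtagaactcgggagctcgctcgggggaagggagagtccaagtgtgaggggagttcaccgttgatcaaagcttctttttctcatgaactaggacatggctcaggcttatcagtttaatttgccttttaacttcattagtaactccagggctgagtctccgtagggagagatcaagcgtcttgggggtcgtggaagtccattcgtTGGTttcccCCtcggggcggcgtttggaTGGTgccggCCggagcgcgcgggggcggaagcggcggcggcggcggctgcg
Uchl1, chr5:66675871-66676170, plus strand: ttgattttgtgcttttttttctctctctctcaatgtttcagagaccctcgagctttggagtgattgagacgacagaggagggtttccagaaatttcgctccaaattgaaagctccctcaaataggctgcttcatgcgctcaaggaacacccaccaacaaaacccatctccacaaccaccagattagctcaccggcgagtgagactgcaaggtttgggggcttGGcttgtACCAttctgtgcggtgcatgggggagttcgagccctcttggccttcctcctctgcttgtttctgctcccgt

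The *Uchl3* window held 2 matches, both on the plus strand. The first ran from 29 to 19 bases before the start (chr14:101653938-101653948) and the second crossed the start itself (chr14:101653966-101653976). The *Uchl1* window held 1 match, on the minus strand, from 28 to 18 bases before the start (chr5:66676093-66676103). The RefSeq start of *Uchl1*, at position 66676121, lies downstream of the start of the gene in GENCODE, at 66676091, so the same match lies inside the GENCODE gene. No match stood in the windows of *Uchl5* (chr1:143777028-143777327) or *Bap1* (chr14:31251239-31251538). Of 32851 windows of this length in the RefSeq table, 13.8% held at least 1 match and 1.4% held 2 or more. A match describes letters and is not a binding site.

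Libraries held summed expected counts of 3534735 to 8265840. Markers of the 8-cell embryo were present in all 11 libraries, with a summed level of 1708 to 2772 TPM (a transcript abundance scaled by length and to the same total in every library) in controls and 2682 to 3275 TPM in mutants over 6 genes that included *Pou5f1*, *Klf5* and *Dppa5a*. *Klf5* was at 80.2 to 123 TPM in controls and 151 to 201 TPM in mutants. *Dppa5a*, which made up most of the sum, was at 1422 to 2207 TPM in controls and 2217 to 2519 TPM in mutants. Both were higher in every mutant than in any control. *Pou5f1*, *Tead4*, *Utf1* and *Zscan5b* overlapped between genotypes. *Zscan5b* had the lower range in mutants, at 32.9 to 135 TPM against 53.4 to 173 TPM in controls. The share of all genes that separate as *Klf5* and *Dppa5a* do is not given here. Whether their difference bears on the members was not tested. The 5 cumulus cell markers summed to at most 0.47 TPM in controls and 3.08 TPM in mutants, with *Has2* and *Ptx3* at 0 throughout. The 4 oviduct markers summed to 0.29 to 25.2 TPM in controls and 0.33 to 32.4 TPM in mutants, mostly *Ovgp1*, and the 3 blood markers to at most 10.9 and 1.95 TPM. *Prdm10* itself was at 11.1 to 24.8 TPM in controls and 4.88 to 8.16 TPM in mutants, without overlap. In normalised counts only 2 of 5 mutants lay below every control. The effective length of a gene is the mean number of bases at which a read can start in its expressed transcripts, as the quantification estimated it. That of *Prdm10* was longer in each of the 5 mutants (4348 to 5051 bases) than in any control (2565 to 3357 bases).

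*Uchl3* (chr14:101653967-101696125, plus strand), whose product cleaves both ubiquitin and NEDD8 precursors, was the most abundant UCH gene in controls and was lower in every mutant. In batch 1, controls were at 82.98, 92.01 and 118.6 TPM and mutants at 41.11 and 35.48 TPM. In batch 2, controls were at 121.3, 153.0 and 172.6 TPM and mutants at 42.70, 30.73 and 29.47 TPM. The highest mutant, at 42.70 TPM, was below the lowest control of either batch. The mean level was 35.9 ± 5.95 TPM (SD, n = 5) in mutants and 123 ± 34.5 TPM (SD, n = 6) in controls. In normalised counts, which do not use transcript length, the means were 142 ± 21.0 (SD, n = 5) and 496.5 ± 186 (SD, n = 6). The log2 fold change of mutants against controls with batch as a term in DESeq2 was -1.80 ± 0.23 (SE), a level 3.48-fold lower. Within batches it was -1.38 ± 0.34 (SE) in batch 1 and -2.13 ± 0.31 (SE) in batch 2.

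*Uchl3* shares sequence with *Uchl4*, a copy with a single exon on chromosome 9 (chr9:64235201-64236362) inside *Map2k1*. Of the 1095 stretches of 75 bases in protein-coding *Uchl3* transcripts, the length of the reads, 17.9% also stand in *Uchl4*, and none of those of the other members stands in another gene in the same orientation. The expected count of *Uchl3* was accordingly not whole in 10 of 11 embryos, while its sum with *Uchl4* was whole within 0.02 reads in all 11. *Uchl4* received 1.59% to 3.58% of the summed reads in controls and 3.69% to 8.38% in mutants. Its own level was 1.15 to 4.42 TPM in controls and 0.92 to 2.68 TPM in mutants, which overlap. With both genes added together before the fit, an alternative chosen after the data were seen, the log2 fold change was -1.74 ± 0.23 (SE), close to the value for *Uchl3* alone.

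*Uchl1* (chr5:66676091-66687234, plus strand), the neuronal and germ cell member, was scarcer and more variable. In batch 1, controls were at 9.84, 20.13 and 20.94 TPM and mutants at 1.87 and 2.70 TPM. In batch 2, controls were at 11.82, 6.53 and 14.70 TPM and mutants at 1.06, 5.47 and 2.83 TPM. All 5 mutants lay below all 6 controls on this scale, by a narrow margin between 5.47 and 6.53 TPM. These levels rest on 16 to 77 reads in controls and 7 to 36 in mutants. In normalised counts 4 of 5 mutants lay below every control, and mutant replicate 2, at 27.4, stood within the control range of 27.3 to 74.6. The log2 fold change was -1.87 ± 0.51 (SE), and it was -2.24 ± 0.76 (SE) in batch 1 and -1.62 ± 0.85 (SE) in batch 2.

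Effective length enters TPM but not the counts, and for *Uchl1* it ranged from 448.1 to 988.6 bases in controls and from 687.3 to 1015 bases in mutants. GENCODE lists 4 transcripts of the gene, of which 1 is protein-coding, so the choice among them changes the level computed from a given number of reads. With the effective length as an offset in DESeq2 the log2 fold change was -2.25 ± 0.52 (SE). An antisense gene, *Uchl1os*, overlaps *Uchl1* on the other strand, and the libraries do not mark strand. The expected count of *Uchl1* was whole in all 11 embryos, and *Uchl1os* was assigned 2 reads in 1 control and 0 in the other 10 embryos.

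*Uchl5* (chr1:143777272-143807466, plus strand), the proteasome and INO80 member, stood at nearly the same level in both genotypes. Controls ranged from 59.94 to 73.25 TPM around a median of 64.0 TPM, and mutants were at 67.97, 63.06, 78.57, 57.47 and 51.74 TPM. Mutants lay on both sides of the control range. Their log2 difference from controls was -0.06 ± 0.17 (SE), and its 95% interval ran from -0.39 to 0.27. Its level among controls was the least variable of the family, with a coefficient of variation of 7.95% in TPM, against 27.9% for *Uchl3*, 40.9% for *Uchl1* and 55.6% for *Bap1*. These pool batches whose means differed. Within batches 1 and 2 the coefficient in TPM was 3.74% and 7.93% for *Uchl5*, 18.9% and 17.4% for *Uchl3*, 36.5% and 37.6% for *Uchl1*, and 35.2% and 23.2% for *Bap1*. In normalised counts over both batches that of *Uchl5* was 15.1%, and those of the others were 37.4% for *Uchl3*, 41.4% for *Uchl1* and 40.9% for *Bap1*.

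*Bap1* (chr14:31251450-31259944, plus strand), the histone H2A deubiquitinase, was highest in batch 1. In batch 1, controls were at 17.43, 17.92 and 8.73 TPM and mutants at 25.10 and 23.94 TPM. In batch 2, controls were at 7.68, 5.80 and 4.89 TPM and mutants at 5.71, 10.32 and 5.30 TPM. Both batch 1 mutants were above every other embryo, whereas the batch 2 mutants overlapped their controls. The log2 fold change by genotype was 0.45 ± 0.28 (SE), and it was 0.81 ± 0.34 (SE) in batch 1 and 0.14 ± 0.47 (SE) in batch 2.

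**Figure D1:**
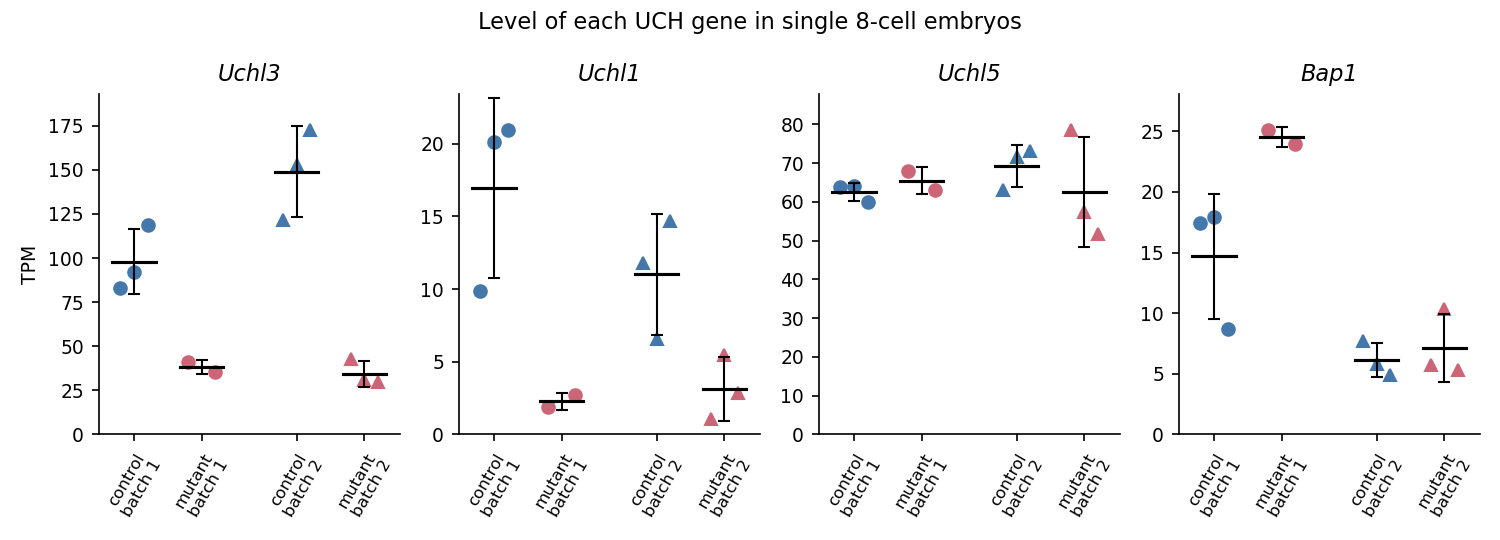
TPM of each UCH gene (vertical axis, one scale per gene, starting at 0) by genotype and batch. Points are embryos (circles batch 1, triangles batch 2; blue controls, red mutants), horizontal bars are means and error bars SDs; *Uchl3* mutants sit between 29.47 and 42.70 TPM, below every control, and *Bap1* is highest in the batch 1 mutants.

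By the study's rule, an adjusted p under 0.05 with a mean normalised count (baseMean) above 10, DESeq2 called 151 of 10448 genes, or 1.45%, with 0.881% lower and 0.565% higher in mutants. *Uchl3* and *Uchl1* were among the lower genes, and *Uchl5* and *Bap1* were not called. The edgeR quasi-likelihood test called 0.334% of 10489 genes, and *Uchl1* was not one of them. It also dropped out of the DESeq2 calls without a batch term, in each batch alone, and with any of control replicates 3, 4, 5 and 6 or mutant replicates 1, 3, 4 and 5 left out. In those 8 fits with an embryo left out its log2 fold change ranged from -1.90 to -1.58. Since the 4 genes were selected on this contrast, no call of a member in any fit is read as support. Over the 19 alternative fits the fold changes of *Uchl3* ran from -2.13 to -1.38, those of *Uchl1* from -2.39 to -1.58, those of *Uchl5* from -0.15 to 0.02 and those of *Bap1* from 0.14 to 0.81.

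**Figure D2:**
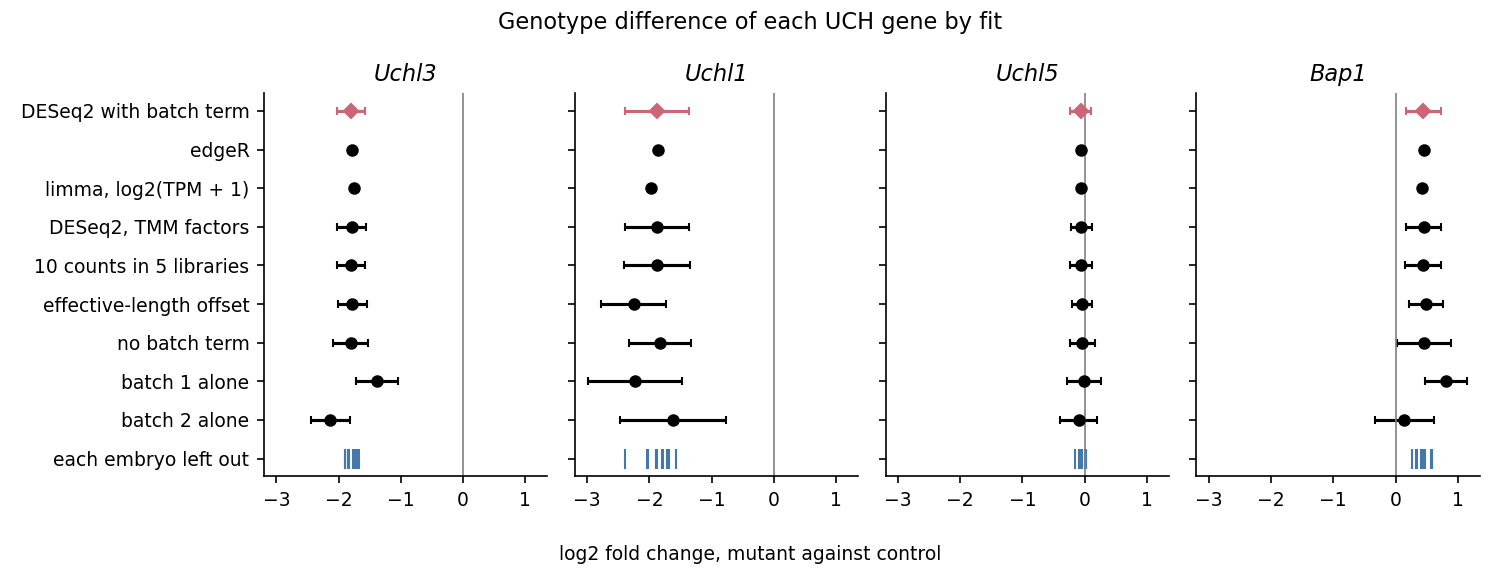
Log2 fold change of mutants against controls (horizontal axis, shared) for each UCH gene under each fit (rows). Diamonds are the DESeq2 fit with batch as a term, circles other fits, error bars SEs where the tool gave one, and ticks in the last row the fits with 1 embryo left out; *Uchl3* and *Uchl1* stay below 0 in every fit, with *Uchl3* at -1.38 in batch 1 and -2.13 in batch 2.

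TPM is scaled by length, so levels of different genes can be set beside each other, and the order of the family was asked in controls. *Uchl3* came first and was above *Uchl5* in 6 of 6 embryos, by a within-embryo difference of 0.85 ± 0.33 (SD, n = 6) on the log2(TPM + 1) scale, or 1.80-fold. *Uchl5* was above *Uchl1* in 6 of 6, by 2.25 ± 0.66 (SD, n = 6), or 4.76-fold. Both differences were larger than their spread between embryos. *Uchl1* and *Bap1* did not differ beyond that spread, at 0.45 ± 0.79 (SD, n = 6) with *Uchl1* higher in 5 of 6 embryos, and from counts per kilobase of annotated transcript in the same controls the order turned, to -0.22 with *Uchl1* higher in 2 of 6. Control levels entered the choice of the genes and the pairs follow the order seen, so these values carry no test. Against the 10448 genes tested, mean control levels exceeded 88.5% of genes for *Uchl3*, 81.0% for *Uchl5*, 52.8% for *Uchl1* and 46.7% for *Bap1*.

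In mutants the upper end of the order differed from that of controls. *Uchl5* was above *Uchl3* in 5 of 5 mutants, with a mean log2 difference of *Uchl3* from *Uchl5* of -0.81. *Bap1* was above *Uchl1* in 5 of 5 mutants and also in 1 control, and controls had no settled order of that pair. *Uchl3* made up 47.4% to 65.0% of the family's summed TPM in controls and 28.3% to 33.3% in mutants. *Uchl5* made up 27.6% to 36.7% in controls and 50.0% to 61.4% in mutants, although its own level was nearly the same, since the shares add up to a fixed total. These shifts follow from the genotype differences by which the genes were chosen and add no separate evidence.

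**Figure D3:**
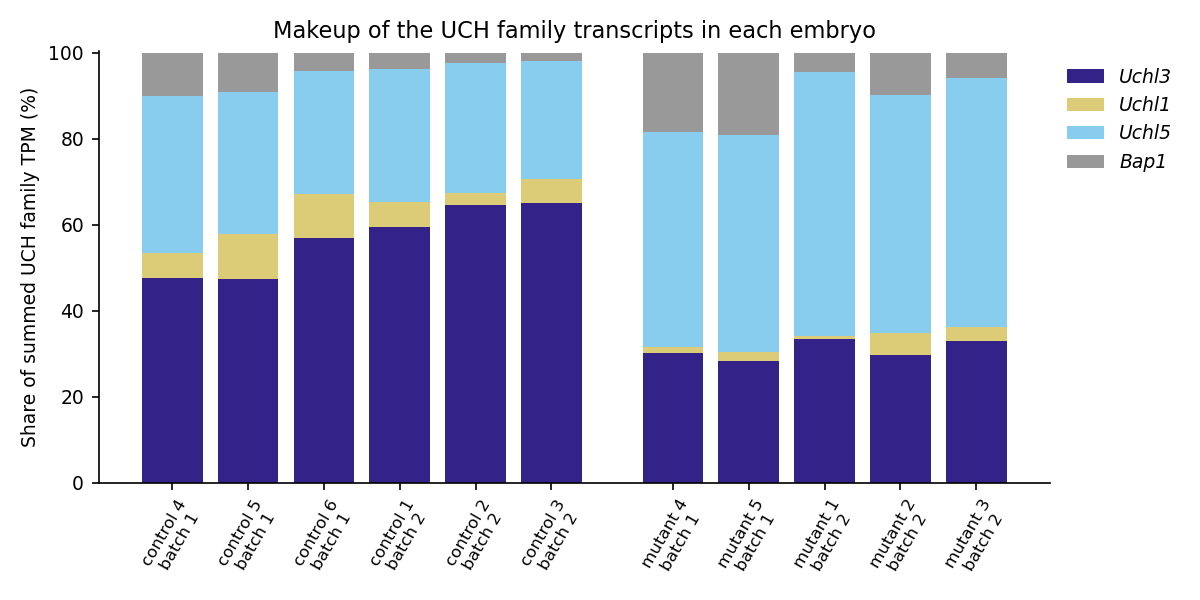
Share of the summed TPM of the 4 UCH genes (vertical axis, percent) held by each gene in every embryo, with controls on the left and mutants on the right, ordered by batch. *Uchl3* is the largest segment in the 6 controls, at 47.4% or more, and *Uchl5* in the 5 mutants, at 50.0% or more.

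The batch difference of the family was not the contrast used in choosing it. It is fitted to the same embryos, whose levels entered the choice of the genes, so it is a description without a test. The batch term of the DESeq2 fit called 2911 of 10448 genes, or 27.9%, and 1 of the 4 members, a share near that background. The member was *Bap1*, lower in batch 2 by a log2 difference of -1.21 ± 0.28 (SE). *Uchl3* was higher in batch 2 by 0.51 ± 0.23 (SE) on the log2 scale. *Uchl5* differed by 0.27 ± 0.17 (SE) and *Uchl1* by 0.24 ± 0.51 (SE), and none of these was called. Among controls alone the log2 difference was -0.91 ± 0.39 (SE) for *Bap1*, which was not called there. For *Uchl3*, which was called there, it was 0.84 ± 0.31 (SE). No batch call of a member is read as support. The 2 batches differed in PCR cycles, and may have differed in other ways that cannot be told apart here.

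The difference of the genotype contrast between batches was also fitted, as an interaction term. DESeq2 called 4 of 10472 genes, or 0.0382%, with 450 at an unadjusted p under 0.05, and edgeR called 0. For the members the term is made from the genotype contrast in view when they were chosen, so it is a description without a test. The log2 fold change in batch 2 less that in batch 1 was -0.75 ± 0.43 (SE) for *Uchl3*, 0.63 ± 1.09 for *Uchl1*, -0.08 ± 0.36 for *Uchl5* and -0.66 ± 0.57 for *Bap1*.

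The genes that work with the UCH enzymes were followed next, from lists written by symbol. Of the 15 known partners of BAP1 and UCHL5, 14 had a baseMean above 10 and 0 were called in either direction by DESeq2 or edgeR, beside 1.45% of all genes by DESeq2. At an unadjusted DESeq2 p under 0.05 there were 2 lower and 1 higher of these 14, where 6.2% of all genes tested were lower and 5.74% higher. Their median log2 fold change was -0.12, beside -0.0012 over all genes tested. *Adrm1*, the proteasome receptor of UCHL5, was the most abundant, at 456 ± 159 TPM (SD, n = 6) in controls and 506 ± 104 TPM (SD, n = 5) in mutants. *Psmd2* and *Psmd1*, large subunits at the base of the proteasome's regulatory particle, were at 98.0 ± 41.5 and 91.0 ± 19.4 TPM (SD, n = 6) in controls. *Nfrkb* and *Ino80*, through which UCHL5 meets chromatin remodelling, had log2 fold changes of 0.07 ± 0.28 and 0.09 ± 0.21 (SE).

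Among the partners of BAP1, *Asxl2* was the main ASXL gene, at 13.3 ± 5.32 TPM (SD, n = 6) in controls against 3.13 ± 1.19 TPM for *Asxl1*, and *Asxl3* was at 0 in every control. *Hcfc1* and *Ogt*, a transcriptional cofactor and the enzyme that modifies it with sugar, had log2 fold changes of -0.15 ± 0.28 and -0.20 ± 0.36 (SE). The lowest values of the list belonged to *Kdm1b*, a histone demethylase, at -1.12 ± 0.40 (SE), with a DESeq2 adjusted p of 0.152, and *Mbd5*, a methyl-CpG-binding domain protein, at -1.0004 ± 0.3781 (SE) with one of 0.196. In TPM, which depends on effective length, *Mbd5* ranged from 2.49 to 8.17 in controls and from 0.72 to 2.07 in mutants, without overlap. The share of all genes that separate in this way is not given here. *Mbd5* passed the threshold in 1 of 19 alternative fits, that with effective length as an offset. There it was lower by a log2 difference of -1.89 (DESeq2 adjusted p = 0.0029).

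The substrates came next. The list of ubiquitin and NEDD8 precursors, their activating enzymes and the NEDD8-conjugating enzymes held 11 genes, all with a baseMean above 10, and 0 were called in either direction by DESeq2 or edgeR, beside 1.45% of all genes by DESeq2. *Ube2m*, a NEDD8-conjugating enzyme, was the 1 gene at an unadjusted DESeq2 p under 0.05 and had a negative fold change, where 6.2% of all genes did the same. Their median log2 fold change was -0.04. The ubiquitin fusion gene *Rps27a* was at 2208 ± 380 TPM (SD, n = 6) in controls and at 2169 ± 432 TPM (SD, n = 5) in mutants. The polyubiquitin gene *Ubb* was at 668 ± 88.7 TPM in controls and 570 ± 140 TPM in mutants. *Nedd8*, whose precursor UCHL3 can process, was at 303 ± 40.1 TPM (SD, n = 6) in controls and 336 ± 27.9 TPM (SD, n = 5) in mutants, with a log2 fold change of 0.10 ± 0.14 (SE).

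In the NEDD8 pathway, which attaches NEDD8 to cullins and removes it again, 24 of 27 genes had a baseMean above 10, 1 was called lower by DESeq2, beside 0.881% of all genes, and 0 higher, and edgeR called 0. At an unadjusted DESeq2 p under 0.05 there were 4 lower and 0 higher of these 24, beside 6.2% and 5.74% of all genes, and the median log2 fold change was -0.06. The 1 called gene was *Cul3*, a cullin scaffold of ubiquitin ligases. In batch 1 its controls were at 64.4, 58.6 and 42.1 TPM and its mutants at 21.1 and 28.6 TPM. In batch 2 its controls were at 190.9, 96.3 and 66.7 TPM and its mutants at 89.0, 95.7 and 69.7 TPM. The groups did not overlap in batch 1 and overlapped in batch 2. The log2 difference between genotypes was -0.82 ± 0.23 (SE), for which the adjusted p was 0.0411 in DESeq2 and 0.226 in edgeR, and the call was lost in 14 of 19 alternatives, the highest being a DESeq2 adjusted p of 0.887 without a batch term. Leaving out any of 8 embryos, control replicates 1, 4, 5 and 6 and mutant replicates 2, 3, 4 and 5, ended the call. The DESeq2 adjusted p was largest, at 0.235, without mutant replicate 4. In those 8 fits the log2 difference ran from -0.84 to -0.61, the last without control replicate 1 (DESeq2 adjusted p = 0.21). *Rnf7*, *Rbx1* and *Cul5*, the most abundant members, had log2 fold changes of 0.08 ± 0.14, -0.09 ± 0.13 and 0.19 ± 0.14 (SE). *Senp8*, another enzyme that matures NEDD8, was at only 2.05 ± 1.58 TPM (SD, n = 6) in controls and 2.15 ± 1.71 TPM (SD, n = 5) in mutants.

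The remaining deubiquitinases were a wider comparison for the family. Of 86 genes in the USP, OTU, Josephin, JAMM and MINDY families, 65 had a baseMean above 10 and DESeq2 and edgeR called 0 in either direction, beside 1.45% of all genes by DESeq2. At an unadjusted DESeq2 p under 0.05 there were 5 lower and 1 higher of these 65, beside 6.2% and 5.74% of all genes. The 42 USP genes tested had a median log2 fold change of 0.03, and 0 of them lay beyond 1 in size. The most abundant were *Usp16*, *Usp10* and *Usp14*, the last of which works on the proteasome as UCHL5 does, at 283 ± 71.0, 212 ± 60.3 and 193 ± 61.6 TPM (SD, n = 6) in controls. The 23 genes of the other families had a median of -0.13. *Psmd14*, the proteasome's own deubiquitinase, *Cops5*, which removes NEDD8 from cullins, and *Otud6b* were the most abundant, with log2 fold changes of -0.12 ± 0.17, -0.22 ± 0.15 and -0.53 ± 0.20 (SE). The 1 gene beyond 1 in size was *Yod1*, at -1.76 ± 0.75 (SE), with 1.47 ± 2.01 TPM (SD, n = 6) in controls and a DESeq2 adjusted p of 0.291.

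**Figure D4:**
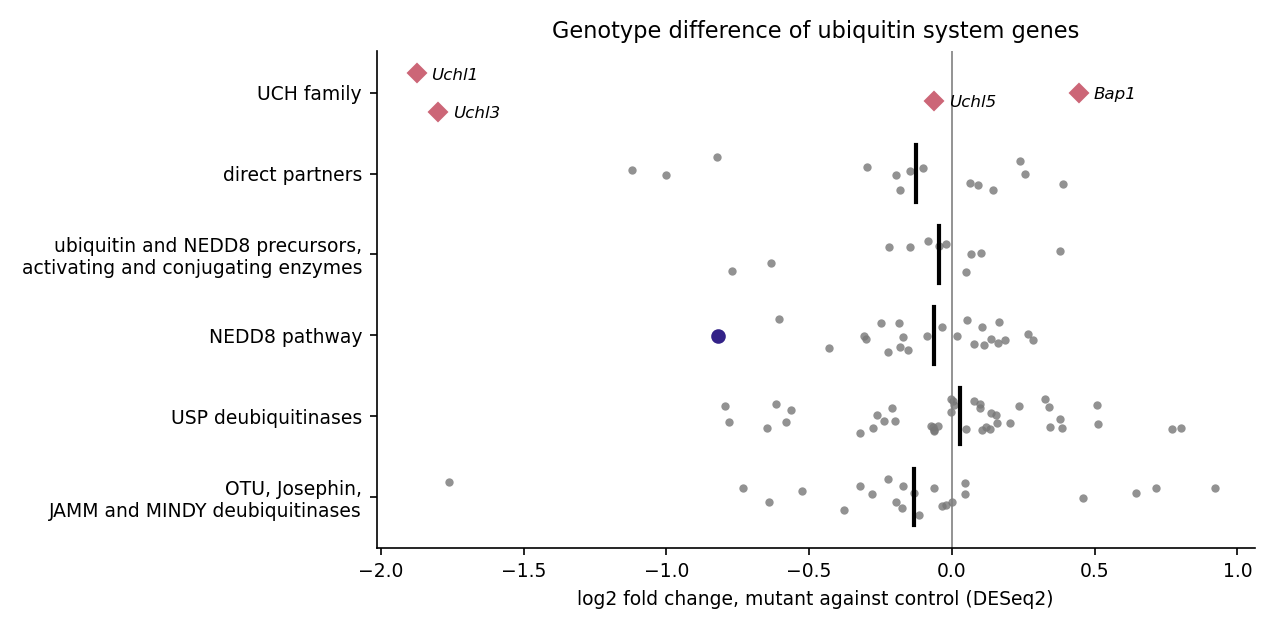
Log2 fold change of mutants against controls (horizontal axis, DESeq2) for the 4 UCH genes (red diamonds) and for the tested genes of 5 ubiquitin system lists (grey points; black bars are list medians). *Cul3*, drawn larger in dark blue at -0.82, is the 1 list gene called, and the list medians lie between -0.13 and 0.03.

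The genes whose pattern was most like that of *Uchl3* were found by correlating log2 normalised counts over the 11 embryos, among 10488 other genes. With batch means removed, the highest Pearson correlations were those of *Pfdn4* (r = 0.973), *Ostc* (0.969), *Selenow* (0.958), *Ube2a* (0.954) and *Tcp11l2* (0.935). This measure still holds the genotype difference, and those 5 genes had log2 fold changes of -3.42, -0.59, -3.90, -4.37 and -4.09. *Ube2a* encodes a ubiquitin-conjugating enzyme, *Pfdn4* a prefoldin subunit and *Ostc* a subunit of the oligosaccharyltransferase. Within the family r was 0.785 with *Uchl1*, 0.411 with *Uchl5* and -0.443 with *Bap1*. With the means of each genotype in each batch also removed, the leading genes were *Rpl4* (r = 0.978), *Vdac3* (0.962), *Mrps22* (0.957), *Pank4* (0.954) and *Gins4* (0.949), with no gene in common with the first set. On that measure r with *Uchl5* was 0.787, with *Uchl1* 0.144 and with *Bap1* -0.581. Embryos share library depth and handling, the leading genes were picked as the highest of many, and the values are a description only.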

How the data were processed

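Each of 11 single-embryo libraries was read once. The authors mapped single-end reads to GRCm38.p6 with STAR 2.6.0c and quantified genes with RSEM. The deposited tables hold expected counts, which divide reads shared between genes, TPM, and an effective length (bases). The authors' comparison table (fold changes and p-values) was not used. No molecular identifiers were used, so copies made by PCR count as separate reads. Summed expected counts were 3534735 to 8265840.

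Expected counts were rounded and fitted in DESeq2 1.42.0 (R 4.3.3) with batch and group as terms (DESeq2 was the tool of the study), and a gene was called at adjusted p under 0.05 and baseMean above 10. Alternatives used edgeR 4.0.16, limma 3.58.1 on log2(TPM + 1), TMM factors, other count filters, no batch term, single batches, an effective-length offset and each embryo left out. The DESeq2, edgeR and limma genotype fits were tested on simulated data. Nothing in the labels says that embryos came from separate litters. Replicate numbers only name embryos and pair none. Symbols came from a later GENCODE release of the same build (54079 of 54146 matched), and start windows from RefSeq.

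The members, gene lists, markers and tests were chosen with earlier results of these data known. Genes named were the members, *Prdm10*, *Uchl4*, the partners, called list members, the 3 most abundant of each list (1 is not reported here) and the 5 genes most like *Uchl3*. *Nedd8*, *Senp8*, *Ube2m*, *Yod1* and *Uchl1os* were named after their values were seen.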

Additional observations from a re-analysis of the deposited data

Results flagged for a closer look

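Among 28 sets of values (members, *Uchl4*, *Prdm10* and *Cul3*, in normalised counts and TPM, by genotype), 2 held an embryo far from the rest of its group, where chance gives about 1 in 20. The normalised count of *Uchl1* in mutant replicate 2 was 27.4, while the other 4 mutants lay between 5.28 and 11.4, and without that embryo the log2 fold change was -2.39 rather than -1.87. The TPM of *Cul3* in control replicate 1 was 190.9, while the other 5 controls lay between 42.1 and 96.3, and without that embryo its log2 fold change was -0.61 with a DESeq2 adjusted p of 0.21.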

How the results depend on the processing

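Against 151 genes called, edgeR called 35, limma 22, the fit without a batch term 51, batch 1 alone 78 and batch 2 alone 48, and the count ran from 90 (without mutant replicate 2) to 265 (without control replicate 2) with 1 embryo left out. The 1 list gene called became 0 in edgeR, in limma, without a batch term and in each batch alone, and ran from 0 to 1 with embryos left out, when it was *Otud6b* in place of *Cul3* without control replicate 4 (*Mbd5* with the length offset). Among the genotype fold changes of the members, only that of *Uchl3* moved beyond its own spread between embryos. It went to -1.38 in batch 1 and -2.13 in batch 2. The spread differed by gene, at 0.298 for *Uchl3*, 0.763 for *Uchl1*, 0.219 for *Uchl5* and 0.449 for *Bap1*. The batch differences of the members are given without a test. That of *Uchl3* was called without mutant replicate 3 (0.59) and among controls alone (0.84). It ran from 0.39 to 0.61 with embryos left out. Among controls alone that of *Bap1* was -0.91 and was not called. The *Uchl1* batch difference turned to -0.24 in limma, -0.004 among controls alone and -0.11 to 0.41 with embryos left out, and was past the threshold in none. The interaction of *Uchl1* ran from -0.31 to 1.29 and that of *Uchl5* from -0.27 to 0.075 with embryos left out. That of *Uchl3* ran from -0.97 to -0.58 and that of *Bap1* from -1.16 to -0.44. In mutants in place of controls the level of *Uchl3* less that of *Uchl5* was -0.81, *Uchl5* less *Uchl1* 4.19 and *Uchl1* less *Bap1* -1.83 (log2). In controls the last turned from 0.45 to -0.22 with counts per kilobase of annotated transcript, and with 1 control left out the first ran from 0.78 to 0.95 and the second from 2.05 to 2.41. The causes of the other changes were not tested. *Uchl1* rested on 7 to 77 reads per embryo.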

Other observations

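The co-variation of UCHL5 and BAP1 with their partners was described after the values were seen, with batch means removed over the 11 embryos and with no test. *Uchl5* varied most closely with *Psmd1*, the proteasome subunit on which its receptor ADRM1 docks, with Pearson's r of 0.934 and Spearman's rho of 0.864, the highest r among 10488 genes. It was 0.805 over the 9 embryos left when those with the most extreme *Uchl5* values were taken out, and 0.932 with genotype means also removed, where *Psmd1* ranked 4 and *Rhebl1* was highest at 0.963. With batch means removed r was -0.043 for *Adrm1*, 0.34 for *Psmd2*, 0.151 for *Ino80* and -0.346 for *Nfrkb*. Over the same 9 embryos it was -0.164, 0.428, 0.107 and -0.669 in that order. With genotype means also removed over all 11 it was 0.423, 0.589, 0.202 and -0.375. For *Bap1* the highest of 9 partners was *Foxk2*, at 0.479, and the lowest *Kdm1b*, at -0.35. Without the 2 embryos with the most extreme *Bap1* values these were 0.407 and 0.018, while *Asxl2* went from 0.371 to -0.232. With genotype means also removed over the 11 embryos *Foxk2* was at 0.673, *Kdm1b* at -0.356 and *Asxl2* at 0.319. On that measure *Mbd5* went from -0.244 to 0.402.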
